A study of Saccharomyces cerevisiae with 30 samples.

Results

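Transcripts of the enzymes that build purines from small precursors, and of the adenine deaminase gene AAH1, were followed in budding yeast exposed to 4 growth inhibitors or to the solvent DMSO. The 10 genes asked for were ADE4, ADE57 (also written ADE5,7), ADE8, ADE6, ADE2, ADE1, ADE13, ADE17, ADE12 and AAH1. They were chosen by name, through the annotation that pairs array probe sets with genes, and by rule the probe set with the highest mean stood for each gene. A named probe set was found for 9 of the 10, and ADE57 was not analysed here. These 9 genes were among 5449 genes with a named probe set and among 5429 that were tested. Each had 1 probe set, of the kind specific to 1 gene, and lay above the array background on all 30 arrays.

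The cultures were of Saccharomyces cerevisiae strain S288C, grown at 30 °C in synthetic broth with 2% dextrose and a nitrogen base without amino acids. The labels list no added adenine. The starting optical density (OD600) was 0.1, and compounds were added at 0.2. At the short exposure they were harvested at 0.5, after about 4 h. At the long exposure they grew with the compounds for 4.5 doublings, about 15 h, and the density at that harvest is not stated in the labels. The short exposures were E9591 (eupolauridine-9591) at 0.053 µM, LMT (liriodenine methiodide) at 2.6 µM, and the metal chelators BIPR (bipyridyl) at 65.9 µM and PHEN (phenanthroline) at 6.2 µM. The long exposures were E9591 and LMT at the same doses. Each dose was the compound's own IC50, so doses differ between compounds, and control cultures received 0.25% DMSO. There were 10 groups of 3 cultures, with 1 array for each culture, in 4 experiments that each had a DMSO group of their own: E9591 at 4 h, LMT at 4 h, both chelators at 4 h, and both alkaloids at 15 h. BIPR and PHEN therefore share their control arrays, as do the 15 h groups. All groups are the same strain, and the labels name no engineered gene. In the study's design the chelators are the reference for the response to iron deficiency.

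Yeast makes purines in a linear pathway that starts from phosphoribosyl pyrophosphate (PRPP) and ends at inosine monophosphate (IMP), from which separate branches lead to AMP and GMP. Most ADE genes are switched on together by the transcription factors Bas1 and Pho2, whose joint action depends on the pathway intermediates SAICAR and AICAR, and the pathway is turned down when adenine is supplied. AAH1 belongs to salvage: its enzyme turns adenine into hypoxanthine, and both its transcript and its protein are lost when yeast stops growing, the protein through the F-box factor Saf1.

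Levels are log2(intensity + 1), where intensity is the brightness of a probe set after the authors' scaling of each array to a common mean. Changes are differences of group means on that scale, ± standard error, with 3 arrays a group. A gene was called when its limma adjusted p, over all 5429 genes, lay under 0.05, and is said to have risen or fallen only then. The cultures are bulk samples, so fewer cells with a transcript and less of it in each cell cannot be told apart. No level of 1 gene is compared with that of another, because probe sets differ in brightness. On any array, between 97.3% and 99.5% of tested genes lay above background. The third DMSO array of the chelator experiment (replicate C) stood apart: its pairwise SD reached 0.386 against 0.227 for the closest pair of that group, and its median over tested genes was 9.83 against 10.04 and 10.08. The largest pairwise SD in any other group was 0.313. Most counts with the chelators are given with and without that array, as are some of the single values that it moves by over 1.5 times. The percentages of all genes called are from the fit with all arrays. Controls also differed between experiments, and AAH1 stood at 12.84 in the DMSO cultures of the LMT experiment against 11.98 and 11.98 in those of the other 4 h experiments, so each treatment is compared with its own controls.

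The 9 genes differed in how far they moved over the 10 groups. The group means of AAH1 spanned 6.86 log2 units and those of ADE12 (adenylosuccinate synthetase, the entry to the AMP branch) spanned 2.58. ADE4 (PRPP amidotransferase, the committed step) spanned 2.32 and ADE6 (FGAM synthetase, in the middle of the pathway) spanned 2.30. The others moved less, from 1.68 for ADE2 (AIR carboxylase) through 1.50 for ADE1 (SAICAR synthetase), 1.42 for ADE17 (which carries out the last steps to IMP) and 1.29 for ADE13 (adenylosuccinate lyase, used both on the way to IMP and in the AMP branch), to 0.73 for ADE8 (GAR transformylase). The DMSO group at 15 h had the lowest mean for 6 of the 9 genes, and E9591 at 15 h had it for ADE8, ADE2 and ADE17. For every ADE gene the highest mean was in a DMSO group at 4 h, whereas AAH1 was highest with E9591 at 15 h.

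**Figure D1:**
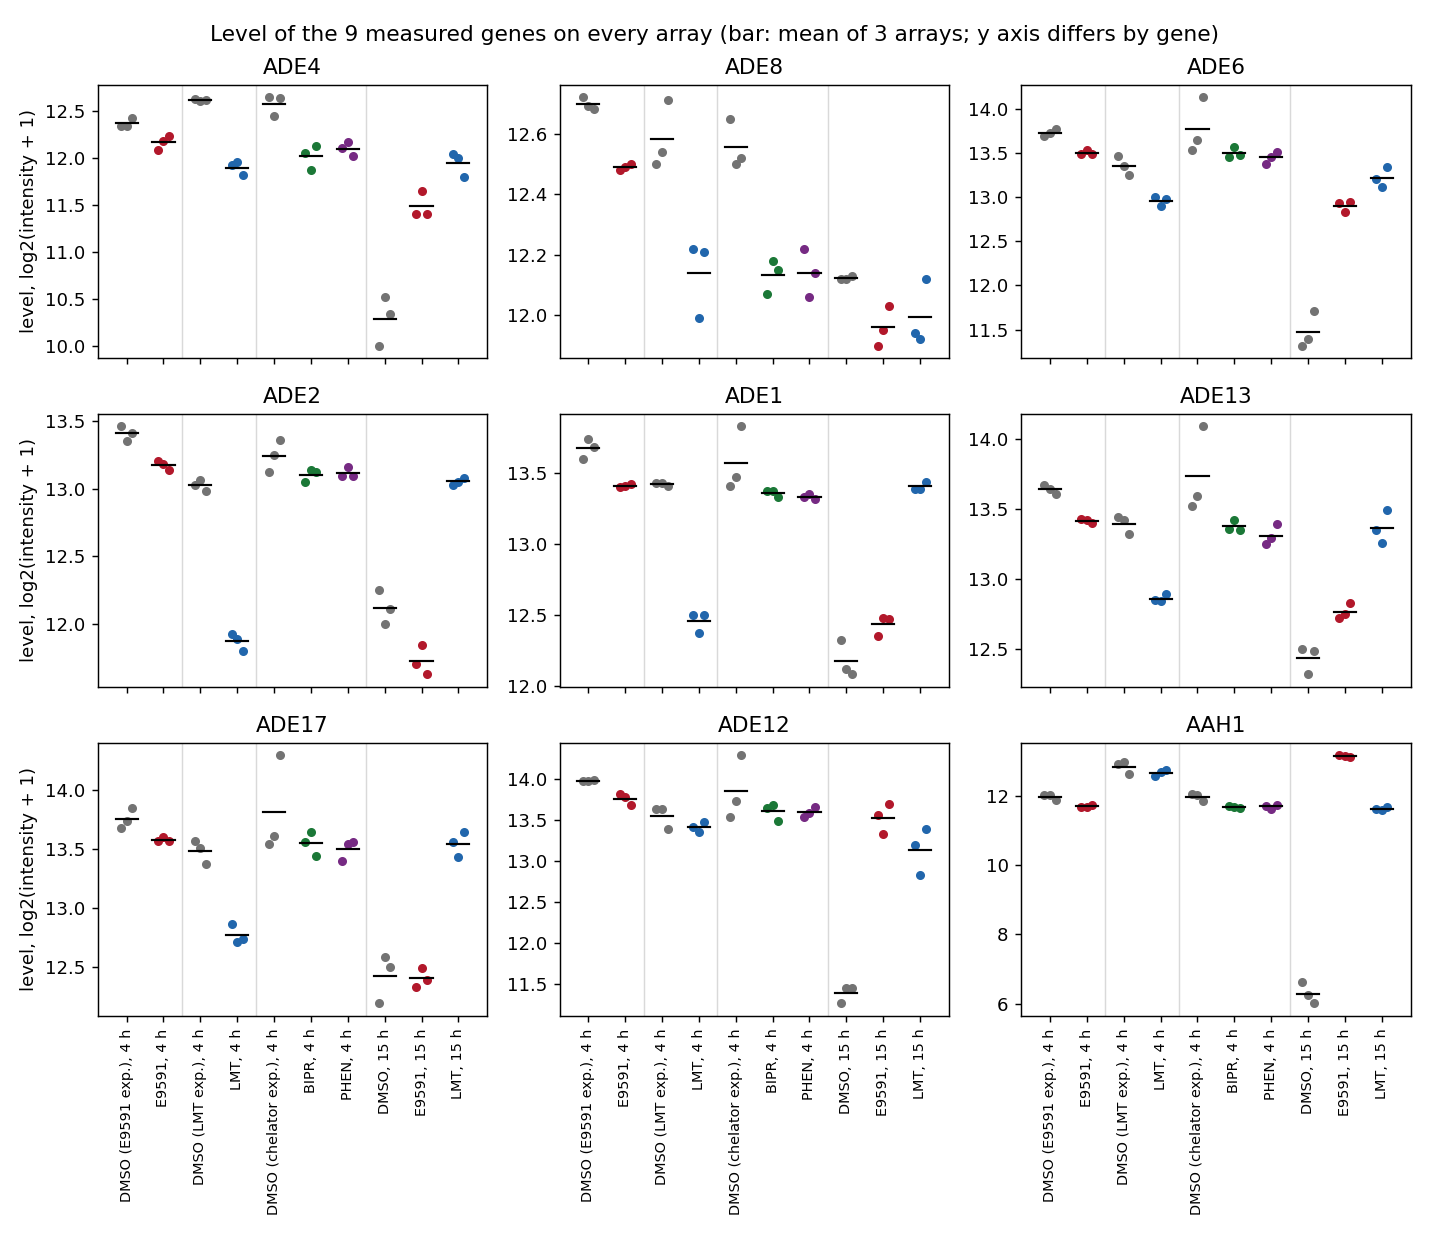
Level of each of the 9 genes, as log2(intensity + 1), on all 30 arrays, by group. Points are single cultures, bars are means of 3, grey marks DMSO, and vertical lines separate the experiments. The DMSO cultures at 15 h have the lowest mean for ADE4, ADE6, ADE1, ADE13, ADE12 and AAH1. For ADE2, ADE1 and ADE17 LMT at 4 h, E9591 at 15 h and DMSO at 15 h all sit low.

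At 4 h, LMT lowered most of the pathway. Of the 9 genes, 7 fell, 0 rose and 2 were not called, with a median of -0.53 against 0.10 over all tested genes. In that comparison 25.2% of all genes were called lower and 65.5% were called in either direction. The arrays of the 2 groups did not overlap for those 7 genes, and the share of all genes separated in this way is not given here. The largest falls were in ADE2 and ADE1, which encode consecutive steps at the carboxylation of the imidazole ring.

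ADE2 measured 13.03, 13.06 and 12.98 in the DMSO cultures and 11.93, 11.89 and 11.80 with LMT. All LMT arrays lay more than 1 log2 unit below every control. The change was -1.15 ± 0.06, a 2.22-fold fall (limma adjusted p = 2.5e-13). ADE1 measured 13.43, 13.43 and 13.41 in the controls and 12.50, 12.37 and 12.50 with LMT. Its groups were again far apart, and it fell by 0.96 ± 0.08 on the log2 scale, or 1.95-fold (limma adjusted p = 1.06e-10).

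ADE4, at the entry of the pathway, measured 12.63, 12.61 and 12.62 in the controls and 11.93, 11.96 and 11.82 with LMT, a change of -0.71 ± 0.10. ADE17, at its end, measured 13.57, 13.51 and 13.37 against 12.86, 12.71 and 12.74, also a change of -0.71 (± 0.13). Both groups of 3 were separate for either gene. ADE13 (-0.53 ± 0.09), ADE8 (-0.44 ± 0.07) and ADE6 (-0.40 ± 0.11) fell less, with limma adjusted p-values from 4.71e-06 to 0.00274. ADE12, which draws IMP into the AMP branch, was not called (-0.13 ± 0.14, 95% interval -0.42 to 0.16). Nor was AAH1, with 12.92, 12.97 and 12.62 in the controls and 12.57, 12.69 and 12.76 with LMT (-0.16 ± 0.10, interval -0.37 to 0.05), and its groups overlapped.

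With E9591 at 4 h the changes of these genes were small. All 9 had a lower mean with E9591 than in the controls, with changes of -0.18 to -0.29, and 4 passed the test: AAH1, ADE1, ADE2 and ADE8. In this comparison 11.3% of all genes were called lower and 43.3% in either direction. AAH1 measured 12.04, 12.02 and 11.89 in the controls and 11.67, 11.69 and 11.73 with E9591, a change of -0.29 ± 0.10 (limma adjusted p = 0.0249). It lost its call in 4 of 6 fits that each left out 1 array, with adjusted p up to 0.0814. ADE1 changed by -0.26 ± 0.08, ADE2 by -0.23 ± 0.06 and ADE8 by -0.21 ± 0.07. The other 5 were not called, with differences of -0.18 to -0.22.

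These small falls depend on how arrays are scaled: 0 of the 9 were called after quantile normalization, with a median of -0.09, and 7 were called when arrays were centred on their median. Without the first DMSO array (replicate A), 2 of the 9 were called, and ADE8 had an adjusted p of 0.0551. The genes are bright ones, 6 of the 9 lying in the brightest 10% of all tested genes, and that 10% had a median change of -0.17 with E9591, with 23.4% called lower. With LMT at 4 h it had a median of -0.12, with 35.5% called lower. The part of this offset in the falls was not tested.

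**Figure D2:**
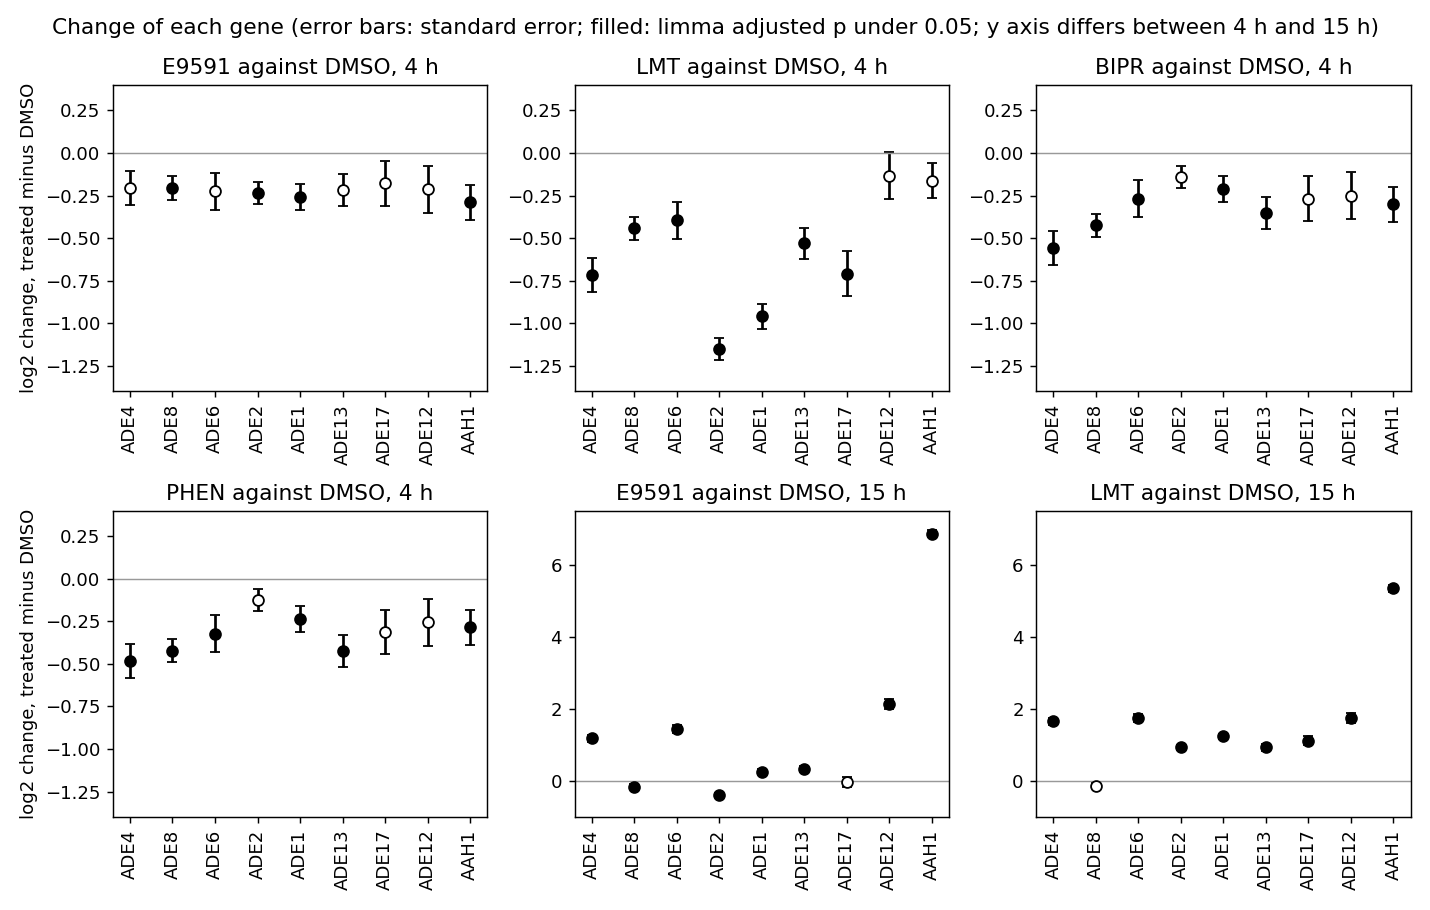
Change of each of the 9 genes, treated minus the DMSO arrays of the same experiment, in log2 units, with error bars of 1 standard error and filled points for genes called by limma. At 4 h the points lie below 0, lowest for ADE2 (-1.15) with LMT. At 15 h AAH1 stands above all others, at 6.86 with E9591 and 5.35 with LMT.

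The difference between the alkaloids at 4 h was tested gene by gene, each against its own controls. LMT lowered 4 of the 9 more than E9591 did, where 13.5% of all genes had a lower LMT effect: ADE2 by 0.92 ± 0.09 (limma adjusted p = 9.14e-08), ADE1 by 0.70 ± 0.11, ADE17 by 0.53 ± 0.18 and ADE4 by 0.51 ± 0.14 log2 units. The ADE17 difference lost its call in 9 of 12 fits that each left out 1 array (adjusted p up to 0.0797). For AAH1 the difference was 0.13 ± 0.14 (interval -0.17 to 0.43), which did not pass. These p-values leave out variation between experiments.

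With all arrays, ADE4, ADE8 and ADE13 had the largest falls with the chelators, and ADE2 was not called. The fall of ADE13 was smaller without the control array that stood apart. With BIPR 6 of the 9 fell and 0 rose, against 18.5% of all genes called lower. With PHEN the same numbers were 6 and 0, against 19.7%. After quantile normalization 4 of the 9 were called with each chelator, and the medians went from -0.27 to -0.09 with BIPR and from -0.31 to -0.12 with PHEN. With arrays centred on their median the counts were 7 and 8. ADE4 measured 12.65, 12.45 and 12.64 in the shared controls, 12.06, 11.88 and 12.13 with BIPR, and 12.11, 12.17 and 12.03 with PHEN. The controls lay above both chelators without overlap, with changes of -0.56 ± 0.10 and -0.48 ± 0.10. ADE8 measured 12.65, 12.50 and 12.52 in the controls, 12.07, 12.18 and 12.15 with BIPR, and 12.22, 12.06 and 12.14 with PHEN. It fell by 0.42 ± 0.07 on the log2 scale with either compound (limma adjusted p = 1.77e-05 and 1.87e-05) and was again fully separate.

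ADE13 (-0.35 ± 0.09 and -0.42 ± 0.09), AAH1 (-0.30 ± 0.10 and -0.28 ± 0.10), ADE6 (-0.27 ± 0.11 and -0.32 ± 0.11) and ADE1 (-0.21 ± 0.08 and -0.24 ± 0.08) also fell with BIPR and PHEN. ADE2 was not called: it measured 13.12, 13.25 and 13.36 in the controls, 13.05, 13.14 and 13.12 with BIPR, and 13.09, 13.16 and 13.09 with PHEN, so the groups overlapped (-0.14 ± 0.06 and -0.13 ± 0.06). ADE17 and ADE12 were not called with either chelator. On the control array that stood apart, ADE17 read 14.30 against 13.54 and 13.61 on the others, and ADE6, ADE13 and ADE12 were raised as well. Without it 4 of the 9 were called lower with each chelator, and the share of all genes called lower in that fit is not given here. ADE6 then changed by -0.09 with BIPR and -0.14 with PHEN and was not called, and ADE1 lost its call too (-0.09 and -0.11). ADE13 was still called without that array, with smaller changes of -0.17 and -0.24, and ADE17 changed by -0.03 and -0.07. Without the third BIPR array (replicate C), 3 of the 9 were called with BIPR. AAH1 lost its call in 3 of 6 fits that each left out 1 array, with either chelator (adjusted p up to 0.0593 and 0.0916), and ADE6 with BIPR in 4 of 6. In the brightest 10% of genes the median change was -0.20 with BIPR and -0.25 with PHEN, and -0.003 and -0.05 without that control array.

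PHEN and BIPR are related chelators: in PHEN the linked pyridine rings of BIPR are held by an added bridge in one fused ring system. Their readouts were compared directly, at the same time but at different doses (6.2 and 65.9 µM), each the compound's IC50. This 1 pair was compared in all 9 genes, with p-values adjusted over all 5429 genes. No gene was called (0.0% of all genes), and 0 of the 9 had an unadjusted limma p under 0.05, against 286 of all genes. The differences ran from -0.07 for ADE13 to 0.08 for ADE4, and the outermost bounds of the 95% intervals were -0.32 and 0.28. The bounds differ between genes, and a difference within a gene's own interval could not be told from none.

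Against the mean effect of both chelators, LMT lowered ADE2 by a further 1.02 ± 0.09 log2 units (limma adjusted p = 8.49e-10), ADE1 by 0.73 ± 0.10 and ADE17 by 0.42 ± 0.17, which made 3 of the 9, where 21.2% of all genes were lower. Without the control array that stood apart these were 5 of the 9, with ADE13 and ADE6 added, and the ADE17 difference was 0.66. With all arrays the ADE17 difference (adjusted p = 0.0475) lost its call in 10 of 15 fits that each left out 1 array. The chelator changes of these 3 genes ran from -0.13 to -0.31 with all arrays, and from -0.03 to -0.11 without that control array. The E9591 effect differed from the chelators by limma in 0 of the 9 (28.9% of all genes were called), and 2 of the 9, ADE8 and ADE4, had an unadjusted p under 0.05. Without that control array 0 of the 9 were called as well.

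The DMSO cultures at 15 h were low in these transcripts. Compared with the mean of the 3 DMSO groups at 4 h, all 9 genes were lower in the DMSO group at 15 h, where 42.6% of all genes were called lower and 90.9% in either direction. AAH1 fell most. It measured 6.61, 6.24 and 6.01 at 15 h, against 11.86 to 12.97 on the 9 DMSO arrays at 4 h. That is a change of -5.98 ± 0.08, or 63.2-fold, although AAH1 still lay above background on the 3 late arrays. ADE12 (-2.40 ± 0.11), ADE4 (-2.23 ± 0.08) and ADE6 (-2.15 ± 0.09) were the next largest, and ADE8 changed least (-0.49 ± 0.06). The 15 h arrays are an experiment of their own, so that exposure time, culture density and experiment cannot be told apart.

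Genes that mark the growth stage differed with them. In the DMSO cultures at 15 h, 7 of 7 glucose-repressed genes were higher than at 4 h (median 6.68), 10 of 10 genes of stress and late growth were higher (median 5.86), and 12 of 12 ribosome assembly genes were lower (median -2.77). MLS1, the malate synthase used for growth on 2-carbon compounds, was at least 665-fold higher, a bound because 7 of the 9 DMSO arrays at 4 h were not above background for it. NOP58, a nucleolar protein of ribosome assembly, was lower by 4.98 log2 units. The part of growth stage in the 15 h results was not tested.

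Against those 15 h controls, cultures with either alkaloid were high in AAH1. AAH1 measured 13.18, 13.14 and 13.12 with E9591 and 11.63, 11.60 and 11.67 with LMT. The 3 groups were separated by more than 1 log2 unit. AAH1 rose by 6.86 ± 0.10 with E9591, or 116-fold (limma adjusted p = 1.42e-25), and by 5.35 ± 0.10 with LMT, or 40.7-fold (adjusted p = 3.65e-23). In this gene the treated cultures were nearer to the 4 h cultures than to their own controls. Against the DMSO groups at 4 h, AAH1 was higher by 0.88 ± 0.08 with E9591 and lower by 0.63 ± 0.08 with LMT, with experiment and time again not told apart.

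The ADE genes divided at 15 h. With E9591, 6 of the 9 rose and 2 fell, where 45.7% of all genes were called higher and 42.2% lower. With LMT, 8 of the 9 rose and 0 fell, where 41.9% were called in each direction. So many genes changed at 15 h that a share of the members called higher says little, and the sizes are the more informative values.

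ADE12, ADE4 and ADE6 rose with both alkaloids. ADE12 measured 11.27, 11.45 and 11.46 in the DMSO cultures, 13.56, 13.33 and 13.69 with E9591, and 13.19, 12.83 and 13.39 with LMT. Both treated groups lay above all controls, by 2.13 ± 0.14 and 1.74 ± 0.14. ADE4 measured 10.01, 10.53 and 10.35 in the controls, 11.41, 11.65 and 11.41 with E9591, and 12.05, 12.00 and 11.80 with LMT, and its rises were 1.19 ± 0.10 and 1.65 ± 0.10. ADE6 rose by 1.43 ± 0.11 and 1.75 ± 0.11.

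The steps from ADE2 to ADE17 were higher with LMT than with E9591. ADE2 measured 12.25, 12.00 and 12.11 in the controls, 11.71, 11.85 and 11.63 with E9591, and 13.03, 13.05 and 13.08 with LMT. The E9591 arrays lay below all controls and the LMT arrays above them: ADE2 fell with E9591 (-0.39 ± 0.06, limma adjusted p = 5.55e-06) and rose with LMT (0.93 ± 0.06, adjusted p = 1.99e-12). ADE17 measured 12.19, 12.58 and 12.50 in the controls, 12.33, 12.49 and 12.39 with E9591, and 13.56, 13.43 and 13.65 with LMT. It was not called with E9591 (-0.03 ± 0.13, interval -0.30 to 0.24), whose arrays lay within the range of the controls, and it rose by 1.12 ± 0.13 with LMT.

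ADE1 rose by 0.26 ± 0.08 with E9591 and 1.24 ± 0.08 with LMT, and ADE13 by 0.33 ± 0.09 and 0.93 ± 0.09. When arrays were centred on their median, 4 of the 9 were called higher with E9591. ADE8 moved little: 12.12, 12.12 and 12.13 in the controls, 11.90, 11.95 and 12.03 with E9591 (-0.16 ± 0.07, limma adjusted p = 0.0289, lost in 4 of 6 fits without 1 array) and 11.94, 11.92 and 12.12 with LMT (-0.13 ± 0.07, not called). Beside these changes, 12 of 12 ribosome assembly genes rose with each alkaloid (medians 2.82 with E9591 and 1.58 with LMT). Of the 7 glucose-repressed genes, 7 fell with E9591 (median -4.00), and with LMT 6 fell and 1, HXK1, rose (median -4.77). The brightest 10% of genes had median changes of 1.15 and 1.12.

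The alkaloids were also set directly against each other at 15 h, without the DMSO arrays. LMT gave higher levels than E9591 in 6 of the 9 genes and lower levels in 2, where 39.5% of all genes were higher and 38.6% lower. ADE2 was higher with LMT by 1.32 ± 0.06 (2.50-fold, limma adjusted p = 4.5e-15), ADE17 by 1.15 ± 0.13 (2.22-fold), ADE1 by 0.98 ± 0.08 (1.97-fold) and ADE13 by 0.60 ± 0.09. ADE4 (0.46 ± 0.10) and ADE6 (0.31 ± 0.11) differed less, and ADE6 was not called without the third LMT array (replicate C, adjusted p = 0.062). AAH1 went the other way, lower with LMT by 1.51 ± 0.10 (2.86-fold, adjusted p = 1.68e-12), and ADE12 was lower by 0.39 ± 0.14, with groups that overlapped and no call in 2 of 6 fits without 1 array (adjusted p up to 0.137). ADE8 was not called (0.03 ± 0.07, interval -0.11 to 0.17).

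Effects also differed between the exposure times. The E9591 effect at 15 h exceeded that at 4 h in 6 of the 9 genes, where 39.7% of all genes differed in this direction, and the LMT effect did so in all 9, where 38.1% of all genes did. The differences for AAH1 were 7.15 ± 0.14 and 5.51 ± 0.14. ADE2 differed with LMT (2.08 ± 0.09), and with E9591 it did not pass (-0.16 ± 0.09, limma adjusted p = 0.113).

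The order of the ADE2 and ADE1 response to the alkaloids was thus opposite at the 2 times. ADE2 was at 11.87 with LMT at 4 h and at 11.73 with E9591 at 15 h, and at 13.05 with LMT at 15 h, while the DMSO groups at 4 h stood at 13.02, 13.24 and 13.41. ADE1 was at 12.46, 12.43 and 13.41 in the same 3 treated groups, against 13.42, 13.57 and 13.67 in the DMSO groups at 4 h. Over the 10 groups the neighbours in this order often did not differ: ranges of arrays overlapped for 7 of 9 neighbouring pairs for ADE2 and for 6 of 9 for ADE1. For AAH1 the order ran from E9591 at 15 h (13.15 ± 0.03, SD, n = 3) over the DMSO and LMT groups of the LMT experiment at 4 h (12.84 and 12.67) and the DMSO groups of the other 4 h experiments (11.98 and 11.98) to PHEN (11.70), E9591 at 4 h (11.70), BIPR (11.68), LMT at 15 h (11.63) and DMSO at 15 h (6.28 ± 0.30), and 5 of 9 neighbouring pairs overlapped.

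Regulator transcripts were measured on the same arrays. BAS1 encodes the DNA-binding activator of the ADE genes. It measured 10.64, 10.49 and 10.34 in the DMSO cultures and 11.86, 11.94 and 12.00 with LMT at 4 h, a rise of 1.44 ± 0.08 (limma adjusted p = 1.16e-13). At 15 h it measured 9.97, 9.89 and 9.83 with DMSO, 12.19, 12.10 and 12.08 with E9591, and 9.36, 9.55 and 9.39 with LMT. BAS1 was therefore highest in the groups in which ADE2 and ADE1 were lowest among treated cultures, LMT at 4 h and E9591 at 15 h, and at 15 h it rose with E9591 (2.22 ± 0.08) and fell with LMT (-0.47 ± 0.08). With E9591 at 4 h it rose by 0.75 ± 0.08, and it was not called with BIPR (0.07) or PHEN (0.13). Its DMSO means at 4 h also differed between experiments, at 10.49 (LMT), 9.68 (chelators) and 9.49 (E9591). PHO2, the partner of Bas1, was higher in the DMSO cultures at 15 h than at 4 h by 1.96 ± 0.09 and fell with E9591 (-2.50 ± 0.11) and LMT (-1.30 ± 0.11) at 15 h. At 4 h the PHO2 mean was 8.61 with LMT against 9.01 in the controls, and 8.98 with E9591 against 9.22. With BIPR and PHEN it was 9.12 and 9.20 against 9.10. Of the 10 groups, E9591 at 15 h (8.56) and LMT at 4 h had the lowest PHO2 means, unlike BAS1, which was highest there.

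SAF1, the F-box gene named above, ran opposite to AAH1 at 15 h. It measured 12.76, 12.66 and 12.76 in the DMSO cultures, 8.03, 7.88 and 7.93 with E9591, and 9.99, 10.07 and 10.06 with LMT. The 3 groups were separate and in the reverse order of AAH1, with changes of -4.78 ± 0.09 and -2.69 ± 0.09. At 4 h SAF1 rose with E9591 (0.49 ± 0.09) and was not called with LMT (-0.08), BIPR (0.08) or PHEN (0.02). Its DMSO means at 4 h differed between experiments too, at 8.99 (chelators), 8.69 (E9591) and 8.04 (LMT). SSN8 and SSN3, which encode the cyclin and kinase of the Mediator's kinase module, were higher in the DMSO cultures at 15 h than at 4 h by 1.15 and 0.73 log2 units.

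**Figure D3:**
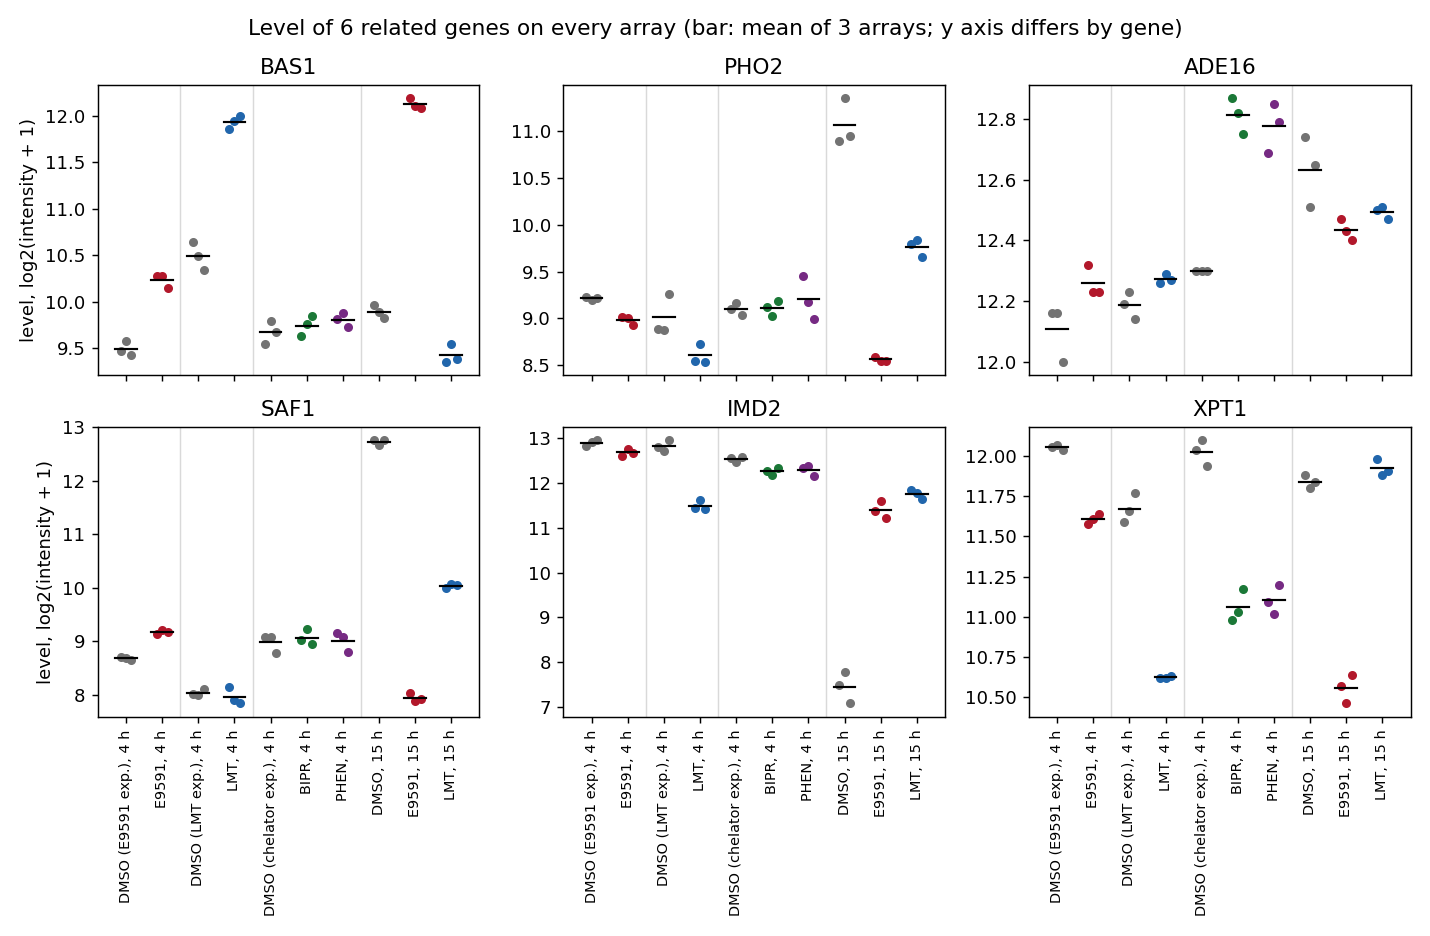
Level of 6 related genes, as log2(intensity + 1), on all 30 arrays, with bars at the means of 3 cultures. BAS1 is high with LMT at 4 h and with E9591 at 15 h, SAF1 and PHO2 are highest and IMD2 lowest with DMSO at 15 h, and ADE16 stays between 12.00 and 12.87.

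ADE16, the paralogue of ADE17 with the same enzyme activity, did not follow it. ADE16 measured 12.30, 12.30 and 12.30 in the chelator controls, 12.87, 12.82 and 12.75 with BIPR, and 12.69, 12.85 and 12.79 with PHEN. It rose by 0.52 ± 0.06 and 0.48 ± 0.06, with no overlap, where ADE17 was not called. In the DMSO cultures it was higher at 15 h than at 4 h by 0.44, and it fell slightly at 15 h with E9591 (-0.20) and LMT (-0.14, not called after quantile normalization). Its rise with E9591 at 4 h (0.15) was -0.00 when arrays were centred on their median.

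The GMP branch, which leads from IMP to guanine nucleotides, holds 5 genes. With LMT at 4 h, 4 of these fell and 0 rose (median -0.42). The largest change was in IMD2, an IMP dehydrogenase, which measured 12.81, 12.72 and 12.96 in the controls and 11.44, 11.63 and 11.42 with LMT (-1.33 ± 0.12, limma adjusted p = 1.31e-09). LMT lowered IMD2 more than E9591 did, by 1.12 ± 0.17. In the DMSO cultures 5 of 5 were lower at 15 h (median -3.41), led by IMD2 (-5.30). Against those cultures 5 of 5 rose with E9591 and with LMT (medians 3.37 and 3.04), IMD2 by 3.95 ± 0.12 and 4.30 ± 0.12. With E9591 at 4 h 2 of the 5 fell. With BIPR and PHEN 2 and 4 fell, and 1 with each without the control array that stood apart.

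Of 14 salvage and interconversion genes, 9 fell and 3 rose with LMT at 4 h (median -0.33). XPT1, a xanthine phosphoribosyltransferase, measured 11.59, 11.66 and 11.77 in the controls and 10.62, 10.62 and 10.63 with LMT (-1.05 ± 0.06). It fell in 5 of the 6 treatments, also with E9591 at 4 h (-0.45), BIPR (-0.97), PHEN (-0.93) and E9591 at 15 h (-1.28), and was not called with LMT at 15 h (0.09). HPT1, the hypoxanthine-guanine phosphoribosyltransferase that uses the product of Aah1, fell in all 4 treatments at 4 h, by 0.83 with LMT, 0.46 with BIPR, 0.40 with PHEN and 0.34 with E9591 on the log2 scale. APT1, the adenine phosphoribosyltransferase that uses the same substrate as Aah1, was not called at 4 h, and rose by 2.90 with E9591 and 1.61 with LMT at 15 h. APT2, its paralogue, rose with LMT (0.76), BIPR (0.82) and PHEN (0.92) at 4 h. GUD1, the guanine deaminase, fell at 15 h with E9591 (-2.21) and LMT (-1.04), opposite to AAH1. Over the list, 9 rose and 4 fell with E9591 at 15 h, and 10 rose and 3 fell with LMT.

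Of 4 purine transport genes, 3 rose with LMT at 4 h, including FCY2, the purine-cytosine permease (0.38), and FCY22, its relative. FCY22 was at least 2.78-fold higher with LMT, a bound because none of the 3 DMSO arrays was above background for it. With E9591 at 4 h FCY21 rose (0.68). All 4 rose with either alkaloid at 15 h, FCY2 by 2.15 with E9591 and 0.85 with LMT, and all 4 were lower with LMT than with E9591. At 15 h FCY22 was above background on only 1 of 3 DMSO arrays and 2 of 3 LMT arrays, so its differences there are not exact.

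Pathways that share precursors or intermediates gave a mixed picture. The 5 PRPP synthetase genes (PRS1 to PRS5) all fell with BIPR (median -0.35) and with PHEN (median -0.37), also without the control array that stood apart. Of these, 2 fell with LMT and 3 with E9591 at 4 h, and at 15 h 4 rose and 1, PRS2, fell with each alkaloid. In one-carbon supply, 4 of 8 fell with LMT at 4 h, among them SHM2 (-0.45), the cytosolic serine hydroxymethyltransferase, while GCV1 of the glycine cleavage complex rose (0.78). SHM2 was at 0.79 with LMT and -0.00, not called, with E9591 at 15 h, and it was higher with LMT than with E9591 by 0.79. ADE3, which supplies formyl groups to the pathway, was not called at 4 h and rose by 1.61 and 1.55 at 15 h.

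Histidine synthesis releases AICAR and shares the activator Bas1. Of its 7 genes, 5 rose and 0 fell with LMT at 4 h (median 0.37), opposite in direction to the ADE genes, and 4 rose with E9591 (median 0.16; 1 rose and 1 fell when arrays were centred on their median). Rises were the commoner call over all tested genes at 4 h: 2192 rose and 1366 fell with LMT, and 1736 and 614 with E9591. The medians of all tested genes were 0.10 and 0.09. With BIPR 1 of the 7 histidine genes rose and 4 fell, and with PHEN 4 fell. Without the control array that stood apart 0 rose and 3 fell with each. At 15 h 7 of 7 rose with each alkaloid (medians 2.04 and 1.35), and 7 of 7 were lower with LMT than with E9591 (median -1.26), again opposite to ADE2, ADE1 and ADE17. HIS7, which encodes the step that releases AICAR, rose by 0.16 with E9591 and 0.37 with LMT at 4 h, and by 3.01 and 1.90 at 15 h. Centring arrays on their median moves every 4 h change by -0.16 with E9591 and by -0.20 with LMT. The HIS7 rise with E9591 at 4 h is about the size of that step. Of 8 pyrimidine synthesis genes, 7 fell and 1, URA10, rose with LMT at 4 h (median -0.48), 7 fell with each chelator (6 without that control array), and at 15 h 6 rose with E9591 and 7 with LMT.

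**Figure D4:**
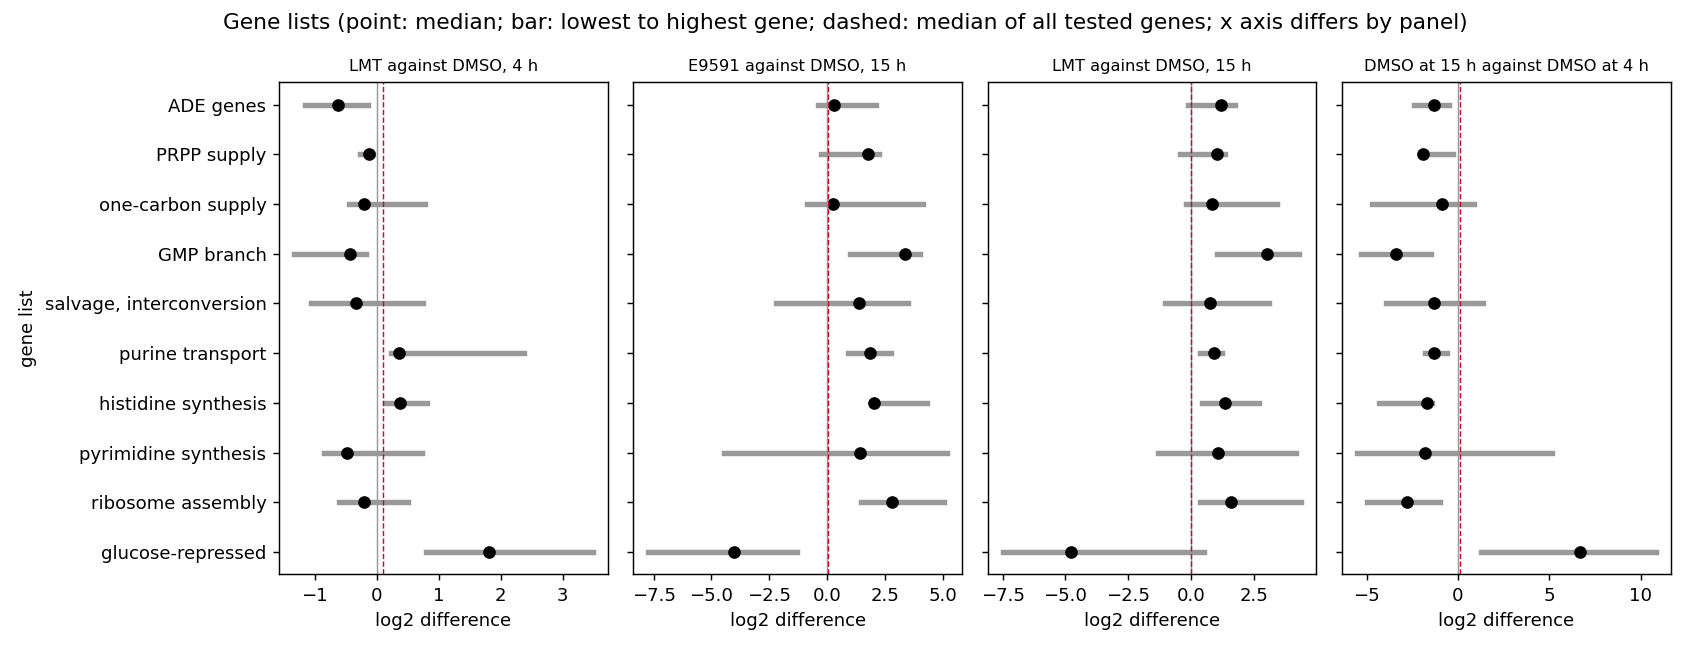
Gene lists in 4 comparisons: points are list medians of the log2 difference, bars run from the lowest to the highest gene, and the dashed line is the median of all tested genes. With LMT at 4 h the ADE median lies at -0.62 and the histidine median at 0.37, and in the DMSO cultures at 15 h the ADE, GMP branch and ribosome assembly medians lie below 0 and the glucose-repressed median at 6.68. The upper end of the glucose-repressed bar there is MLS1, whose plotted difference is not exact, since it was mostly below background at 4 h.

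Growth-stage genes also moved at 4 h, beside the changes of the ADE genes. With LMT 7 of 7 glucose-repressed genes rose (median 1.81), and 8 of 10 genes of stress and late growth rose and 1 fell. With E9591 5 of 7 and 7 of 10 rose, with BIPR 4 and 4, and with PHEN 3 and 3. Without the chelator control array that stood apart these were 2 and 2 with BIPR and 2 and 3 with PHEN. Ribosome assembly genes fell in 3 of 12 with LMT (1 rose), in 4 with E9591, in 9 with BIPR and in 8 with PHEN (8 and 6 without that control array). Over all genes 25.2% were called lower with LMT, 11.3% with E9591, 18.5% with BIPR and 19.7% with PHEN. The part of growth stage in the falls of the ADE genes was not tested.

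The genes with the most similar pattern were found by the root mean square distance between group means over the 10 groups, each gene centred on its own mean. Those nearest to AAH1 were YBL081W (0.34 log2 units), ANB1 (0.38, an anaerobic form of the translation factor eIF5A), NOP58 (0.47), DCD1 (0.51, dCMP deaminase) and PFK27 (0.52, a phosphofructokinase that makes fructose-2,6-bisphosphate), where the median gene lay at 1.88. The nearest ADE gene to AAH1 was ADE12, at 1.24. Those nearest to the mean profile of the 8 ADE genes were YCS4 (0.07, a condensin subunit), LIP1 (0.12, a ceramide synthase subunit), ARL1 (0.13, a Golgi GTPase), URA4 (0.13, dihydroorotase of pyrimidine synthesis) and TCP1 (0.14, a chaperonin subunit), where the median gene lay at 0.70. The ADE genes themselves lay between 0.12 (ADE13) and 0.39 (ADE12) from that mean, and between 2 and 643 other genes lay nearer to it than they did. Each ADE gene is itself part of that mean, which makes its own distance, and the count of nearer genes, smaller.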

How the data were processed

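The authors deposited 1 table of intensity on a linear scale for 10928 probe sets on 30 arrays. Each array's 2% trimmed mean lies between 999.3 and 999.6, so each array had been scaled to one target. Which software summarised the probes, and how background was corrected, is not given in the sources used here. Such scaling can move every gene of an array a little, by the same step, when abundant messages change. The platform annotation paired 5498 probe sets with 1 gene and 1 with several, 1746 belong to another yeast species and 3683 are unnamed here. For 12 genes the symbol was updated through a RefSeq gene table (R64). Where several probe sets named a gene (47 genes), the brightest on average represented it.

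Background was the 95th percentile of the other-species probe sets (11.2 to 34.5 in intensity), and genes above it on at least 3 arrays were tested (5429, leaving out 20). Where a gene was not above background, an "at least" fold sets the brighter group's mean log2 level against the mean of, for each dim array, the higher of its own signal and the lowest signal above background. The highest intensity of a member was 20131 (ADE17), and array maxima ran from 16401 to 39002. The number of arrays, 3 a group, limits the precision.

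On the scale log2(intensity + 1), limma 3.58.1 (R 4.3.3) was fitted with 1 mean for each group over all 30 arrays (20 residual degrees of freedom, prior 3.16). P-values are two-sided with Benjamini-Hochberg adjustment over 5429 genes in each of 16 comparisons. Tables and figures were made with Python 3.11.15. The labels call the cultures biological replicates, and p-values measure the spread between them. The fit was tested on simulated data. No pair of arrays was identical. Mating-type genes of both types (MF(ALPHA)1 and STE3, MFA1, MFA2 and STE2) lay above background on all 30 arrays, so they did not check the strain.

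The genes, the lists and the rule for named genes (all members, and any gene of the lists) were chosen with earlier results of these data known. The comparison with the brightest 10% of genes was added after the data were seen. A planned motif search in promoters was not run. Alternatives were quantile normalization, centring on the array median, array weights, the experiment's own arrays only, a pseudocount of 16, no filter, the replicate letter as a block, and leaving out each array.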

Additional observations from a re-analysis of the deposited data

Results flagged for a closer look

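The test of a difference between effects was passed by the following differences, in log2 units with limma adjusted p-values under 0.05. Each effect was measured against the DMSO arrays of its own experiment, so variation between experiments is not part of the error.

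The LMT effect at 4 h lay below the E9591 effect at 4 h for ADE4 (-0.51), ADE2 (-0.92), ADE1 (-0.70) and ADE17 (-0.53). It lay below the mean chelator effect for ADE2 (-1.02), ADE1 (-0.73) and ADE17 (-0.42, adjusted p = 0.0475).

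The E9591 effect at 15 h exceeded that at 4 h for ADE4 (1.40), ADE6 (1.66), ADE1 (0.52), ADE13 (0.55), ADE12 (2.35) and AAH1 (7.15). The LMT effect at 15 h exceeded that at 4 h for all 9 genes: ADE4 (2.37), ADE8 (0.31), ADE6 (2.14), ADE2 (2.08), ADE1 (2.20), ADE13 (1.46), ADE17 (1.83), ADE12 (1.88) and AAH1 (5.51). Exposure time, culture density and experiment cannot be told apart here. Of the 12 ribosome assembly genes, 12 and 11 differed the same way (medians 2.91 and 1.96), and their part was not tested.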

How the results depend on the processing

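Counts below are of the 9 genes called. For E9591 at 4 h the count of 4 became 0 after quantile normalization, 7 with arrays centred on their median, 9 with array weights and 9 with the experiment's own arrays only. For BIPR the count of 6 became 3 with array weights and 3 with its own experiment only. For the E9591 effect minus the chelator effect the count of 0 became 3 after quantile normalization, 2 with array weights and 2 with its own experiments only. The cause was not tested. Leaving out 1 array at a time gave 2 to 4 for E9591 at 4 h, 7 to 8 for LMT at 4 h, 3 to 8 for BIPR, 4 to 8 for PHEN, 7 to 8 for E9591 and 8 to 9 for LMT at 15 h, 0 to 0 for PHEN against BIPR, and 7 to 8 for LMT against E9591 at 15 h. For differences of effects it gave 3 to 4 (LMT minus E9591 at 4 h), 6 to 7 and 9 to 9 (15 h minus 4 h, E9591 and LMT), 0 to 1 (E9591 minus chelators, 1 without the second control array, replicate B) and 2 to 5 (LMT minus chelators). Against the DMSO groups at 4 h it gave 9 to 9, 8 to 9 and 6 to 8 for DMSO, E9591 and LMT at 15 h. Over the members' own changes, 80 calls were lost and 54 gained across alternatives. Signs turned for ADE2 (0.065), ADE1 (0.13), ADE13 (0.049) and ADE17 (0.14) with LMT at 15 h against DMSO at 4 h and for HIS1 with E9591 at 4 h (0.15), all after quantile normalization, and for ADE16 with E9591 at 4 h (-0.0047) after centring. The median of all genes moved by -0.14 and -0.16 under these scalings with E9591 at 4 h, and by -0.13 and -0.20 with LMT at 4 h. Genes called higher and lower over the whole table went from 1736 and 614 to 943 and 1268 after quantile normalization and 1075 and 1630 after centring for E9591 at 4 h, from 2192 and 1366 to 1595 and 1903, and 1518 and 2168, for LMT at 4 h, from 1502 and 1005 to 1221 and 1369, and 1223 and 1408, for BIPR, and from 1586 and 1069 to 1239 and 1431, and 1192 and 1627, for PHEN. The replicate letters were not taken to pair arrays, since 7 of 24 same-letter pairs correlated above 0.1 (from -0.09 to 0.33). In 15 of 24 comparisons an array matched its own letter best, which is a hint of pairing from the data, not from the design. With the letter as a replicate block the PHEN count went from 6 to 7, and no count moved by over 1.5 times.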
